A study of Homo sapiens with 6 samples.

Results

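The library siRIPK2_4 is 1 of 4 RNA-seq libraries of U118 cells in which RIPK2 was knocked down by siRNA, harvested at day 2, and it was set against the other 5 libraries of the series. Those 5 were wild-type cells (WT), cells given the control siNC, and the knockdown libraries siRIPK2_1, siRIPK2_2 and siRIPK2_3. U118 is an established glioma line, which the labels call human brain astroblastoma cells, and all 6 libraries came from cells grown in DMEM with serum. Nothing in the labels tells whether the 4 knockdown libraries came from 4 siRNAs, from separate cultures or from repeats of 1 transfection, nor how the WT cells were handled. Genes were called higher or lower only by their position against the other 5 libraries. Which of them are named, some after their values were seen, is set out under the processing of the data. Of 20263 listed gene IDs, 10673 had a mean of at least 5 CPM (counts per 1e6, scaled with TMM factors), and in 3501 of these siRIPK2_4 lay outside the range of the other 5. In 338 it lay outside by at least 1.5-fold. With 1 library there is no replicate, so everything below is a description of that library with no p-value, and intervals cover counting error only.

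An siRNA is a short RNA duplex whose guide strand directs Argonaute proteins to cut a fully paired messenger RNA. The same strand can also lower other messenger RNAs that pair only with its seed, the few bases near its 5' end, mostly through sites in the 3' untranslated region (3' UTR). RIPK2 itself is the kinase that relays signals from the bacterial sensors NOD1 and NOD2 to NF-kB and MAP kinases.

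Total counts ranged from 33540619 to 45309423 per library, with 37243009 in siRIPK2_4, and 3 counts there corresponded to 0.0825 CPM. Mitochondrial transcripts took between 4.1% and 4.71% of counts, and 4.13% in siRIPK2_4. RIPK2, the targeted gene, was at 56.8 CPM in WT, 43.4 in siNC, 3.86, 11.8 and 6.29 in siRIPK2_1 to siRIPK2_3 and 4.32 in siRIPK2_4. The residual level in siRIPK2_4 thus lay inside the range of the other knockdown libraries. The astrocyte markers GFAP (0.53 to 1.09 CPM) and S100B (0 counts in 5 libraries and 0.0485 CPM in siRIPK2_2) were near absent throughout, whereas VIM (3803 to 7568 CPM) and CD44 (225 to 555 CPM) were abundant, so the astroglial label is not borne out by those 2 markers. In siRIPK2_4 VIM was at 7191 CPM and CD44 at 489 CPM, both inside the range of the rest.

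Genes were lower in siRIPK2_4 far more often than they were higher, once small gaps were left aside. Outside the range by any amount, 1776 genes (16.6% of those measured) lay above and 1725 (16.2%) lay below the other 5. At 1.5-fold or more, 56 genes (0.525%) lay above and 282 (2.64%) below, and at 2-fold 11 lay above and 106 below. Without siRIPK2_1 among the others, 93 genes lay above by 1.5-fold, and without genes that overlap another listed gene 187 lay below. Gaps were taken between siRIPK2_4 and the nearest of the other 5 libraries on the log2(CPM + 0.5) scale. Of the 56 higher genes, 4 (SPECC1L-ADORA2A, EPHB3, PCDHB2 and CLCN5) had a mean under 5 CPM in the other 5 libraries and so passed the filter only through siRIPK2_4, as did 33 of all 10673 genes and 0 of the lower ones. For 195 of the 282 lower genes and 25 of the 56 higher genes, the gap was wider than the whole spread of the other 5. The higher group ended at C21orf91 with a gap of 0.59, with PPP2R5D just outside at 0.58, and the lower group ended at SPRING1 (0.59) with TMED7-TICAM2 just outside (0.58).

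An excess of lower genes was not particular to siRIPK2_4. Treated the same way, WT had 27 genes below and 20 above the other 5, siNC 297 and 64, siRIPK2_1 400 and 177, siRIPK2_2 221 and 66, and siRIPK2_3 307 and 105. The number of lower genes in siRIPK2_4 thus lay inside the span of the other transfected libraries, and its number of higher genes was the smallest among them. By any amount, the other 5 libraries had 877 to 2440 genes above and 857 to 2338 below, against 1776 and 1725 in siRIPK2_4. At each gene some library is the highest and some the lowest, so such counts arise in every library.

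**Figure D1:**
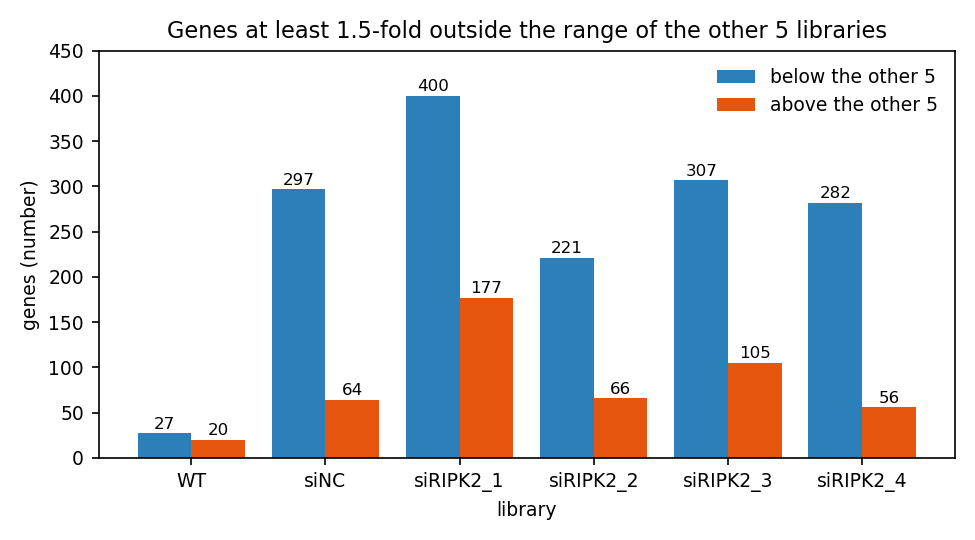
Bars give the number of genes, of 10673 measured, at which each library (x axis) lay at least 1.5-fold below (blue) or above (orange) all 5 others. siRIPK2_4 had 282 below, inside the 221 to 400 of the other transfected libraries, and 56 above, under their 64 to 177. WT had the fewest of both.

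The widest gap of all was at GCLM, which encodes the modifier subunit of glutamate-cysteine ligase, the enzyme that starts glutathione synthesis. GCLM (ENSG00000023909, GRCh38 chromosome 1, 93885205 to 93909456, minus strand) was at 86.2 CPM in WT, 74.5 in siNC, 64.8, 76.4 and 66.9 in siRIPK2_1 to siRIPK2_3, and 6.05 in siRIPK2_4 (95% exact Poisson interval 5.28 to 6.91). The other 5 libraries lay close together, and siRIPK2_4 stood at 9.34% of the lowest of them, a gap of 3.32 on the log2 scale. The catalytic subunit of the same enzyme, GCLC, was at 21.8 CPM in siRIPK2_4 against 16.4 to 20.9 CPM elsewhere, and so had no such gap.

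Next came TPP1, a lysosomal tripeptidyl peptidase whose loss causes a form of neuronal ceroid lipofuscinosis. TPP1 (ENSG00000166340, chromosome 11, 6612763 to 6619485, minus strand) was at 215 CPM in WT, 209 in siNC, 175, 216 and 239.9 in siRIPK2_1 to siRIPK2_3 and 26.4 in siRIPK2_4 (24.8 to 28.1), which was 15.1% of the lowest of the others and a gap of 2.71. SHMT2, the mitochondrial serine hydroxymethyltransferase that feeds one-carbon metabolism, was at 104.5 CPM in siRIPK2_4 and between 394 and 609 CPM in the rest. The monoglyceride lipase gene MGLL was at 62.5 CPM in siRIPK2_4 and between 271 and 414 CPM elsewhere. For GCLM and TPP1 the controls and the other 3 knockdown libraries were intermixed, and siRIPK2_4 alone was low. For MGLL the 2 controls lay under the other 3 knockdown libraries, so siRIPK2_4 lay on the opposite side from its fellow knockdowns.

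The next widest gaps were at genes of varied function. GPRC5A, an orphan receptor induced by retinoic acid, was at 27.4 CPM in siRIPK2_4 against 113 to 167 CPM. IMPDH1, which catalyses the committed step of guanine nucleotide synthesis, was at 17.4 CPM against 67.3 to 116 CPM. PRKD2, a kinase activated by diacylglycerol, was at 10.5 CPM against 41 to 56.9 CPM, and LRRC8A, the obligatory subunit of the volume-regulated anion channel, was at 29.3 CPM against 110 to 247 CPM. The small GTPase gene DIRAS1 was at 0.743 CPM (0.49 to 1.08) against 4.97 to 10.3 CPM. In each of them the gap to the lowest other library was at least 1.9 on the log2 scale.

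Some entries among the 15 widest gaps below rest on counts that cannot be assigned with certainty. DDT (10.6 against 56.5 to 96.7 CPM) and DDTL (7.73 against 30.5 to 46.1 CPM) are near-identical copies whose exons overlap. RPL36A-HNRNPH2 (2.56 against 18.1 to 35.2 CPM), ENSG00000283761 (1.21 against 7.35 to 38 CPM) and SCHIP1 (4 counts in siRIPK2_4, 0.11 CPM with an interval of 0.03 to 0.282, against 3.08 to 12.4 CPM) also overlap other listed genes. ENSG00000267303 had 0 counts in siRIPK2_4 and 1.24 to 1.87 CPM in 4 libraries but 35.1 CPM in siRIPK2_3, and no fold is given for it. Over all measured genes 31.3% overlapped another listed gene, as did 95 of the 282 lower genes (33.7%) and 15 of the 56 higher ones (26.8%). Among genes described above and below as single genes, SHMT2, DIRAS1, FGF5, PDGFRA, MDM2, NFE2L2, CTSD, LIPA, CA9, TEAD2, NID2 and AJUBA also overlap another listed gene.

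**Figure D2:**
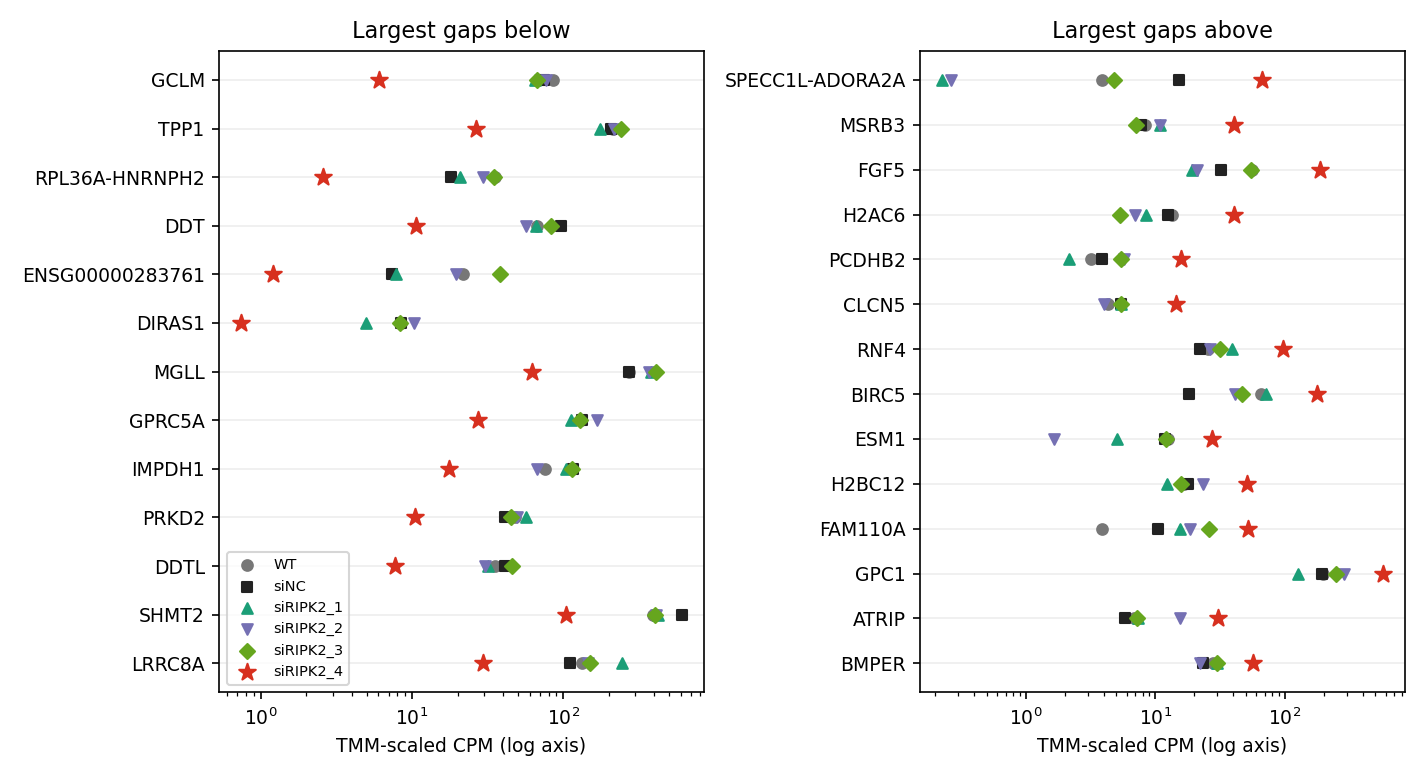
TMM-scaled CPM (log axes) of the 13 genes with the widest gaps below (left, leaving out SCHIP1 and ENSG00000267303, which are near 0) and 14 of the 15 with the widest gaps above (right). Each symbol is 1 library, with siRIPK2_4 as a red star. The star stands clear of the other 5 in every row, at 6.05 CPM for GCLM and at 186 CPM for FGF5.

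Further genes of the lower group are named here after their values were seen. CTNNB1, which encodes beta-catenin, was at 453 CPM in WT, 549.9 in siNC, 572, 468 and 477 in siRIPK2_1 to siRIPK2_3 and 222 in siRIPK2_4. The Ras family member HRAS was at 21.8 CPM in siRIPK2_4 against 54.6 to 74.2 CPM, the Notch ligand JAG1 at 73.5 against 176 to 236 CPM, and the receptor NOTCH3 at 5.89 against 12.3 to 23.2 CPM. Syndecan-4 (SDC4), a heparan sulfate proteoglycan of focal adhesions, was at 62.4 against 165 to 228 CPM, and SLC17A5, the lysosomal sialic acid exporter, at 5.25 against 18.2 to 35 CPM. TXNIP, a thioredoxin inhibitor, was at 3.79 CPM in siRIPK2_4, but its other 5 libraries ran from 8.65 to 46.8 CPM, a wider spread than its gap.

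What the 282 lower genes shared most visibly was a short sequence in the 3' UTR, which is why the following stretches are shown. All 16384 words of 7 bases were ranked by the difference between the share of lower genes and the share of all genes holding them, and GATCACA came first. The 3' UTRs were those of GENCODE release 29 on GRCh38, taking the longest annotated 3' UTR of each gene, and 10632 of the measured genes had one. Each stretch is written 5' to 3' on the messenger strand, with the 7-base word, or the 8-base word TGATCACA where present, in capitals.
MGLL, chr3:127690441-127690466, minus strand: cagcagcccTGATCACAccatgagag
IMPDH1, chr7:128392328-128392352, minus strand: cacacttggGATCACAgttgcgtca
SHMT2, chr12:57234592-57234617, plus strand: cccctgtcaTGATCACAgtgtcagag
SLC17A5, chr6:73593934-73593958, minus strand: tctcacatgGATCACAgtataaatt
NFKB1, chr4:102616865-102616889, plus strand: ctgctgctgGATCACAgctgctttc
SDC4, chr20:45326756-45326781, minus strand: gggtacttgTGATCACActacgggaa
HRAS, chr11:532255-532279, minus strand: cacagatggGATCACAgtaaattat
CTNNB1, chr3:41239869-41239893, plus strand: acaagaatgGATCACAagatggaat
JAG1, chr20:10639028-10639052, minus strand: cacagcaacGATCACAaatgacttt
Outside the capitals these stretches have little in common, and they come from genes on 7 chromosomes.

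The word GATCACA was in the 3' UTR of 120 of the 282 lower genes (42.6%), of 5 of the 54 higher genes with a 3' UTR (9.26%) and of 11.1% of all genes. ATRIP and MDM2 were among those 5 higher genes. The overlapping word TGATCAC, which ranked second, was in 31.6% of lower genes and 9.15% of all genes, and the joint 8-base word TGATCACA in 16.3% and 3.79%. The 6-base core GATCAC, which both 7-base words share, was in 66% of lower genes and 27.6% of all. All 5 of the first-ranked words contained that core. The reverse complement of the 7-base word, TGTGATC, was in 17.7% of lower genes and 13.5% of all, so the excess lay mainly on the messenger strand. Because the lower genes themselves chose the word, these shares are a description and not a test.

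Length and repeats bear on how often a 3' UTR holds any word. The median 3' UTR was 1937 bases in the lower genes and 1436 in all genes. In each of 4 equal classes of 3' UTR length the share was higher in the lower genes, from 25% against 1.24% in the shortest class to 51.7% against 27% in the longest. With the shortest annotated 3' UTR of each gene in place of the longest, the word was in 24.8% of lower and 4.46% of all genes. Alu repeats, which are common in human 3' UTRs, can carry the word. Counting only matches without an Alu-like flank (at most 1 of 5 letters off the consensus before the word), 39% of lower and 9.5% of all genes held it. In the rest of the transcript, meaning the 5' UTR and coding region, the word was in 24.5% of lower and 10.8% of all genes.

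**Figure D3:**
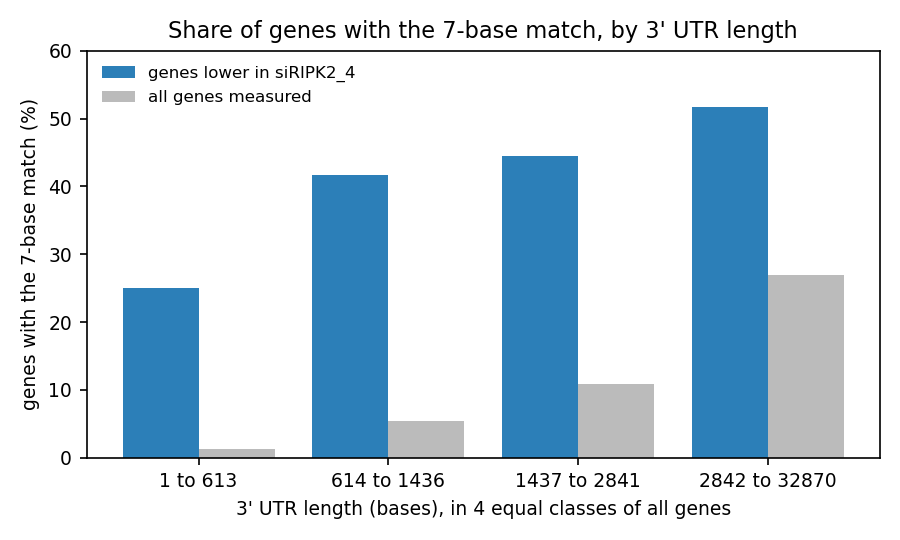
Percentage of genes whose 3' UTR holds the 7-base word, for the 282 lower genes (blue) and all 10632 genes with a 3' UTR (grey), in 4 equal classes of 3' UTR length in bases (x axis). The blue bars, from 25% to 51.7%, exceed the grey bars, from 1.24% to 27%, in all 4 classes.

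The share was not as high among the lower genes of any other library. The lower genes of siRIPK2_4 had chosen the word, and a gene lowest in siRIPK2_4 cannot be lowest in another library. The shares below are therefore a description and not a test. Among the genes lower by 1.5-fold in WT, siNC, siRIPK2_1, siRIPK2_2 and siRIPK2_3, 14.8%, 9.49%, 4.52%, 8.18% and 11.1% held it, against 11.1% of all genes. The first-ranked words of the other knockdown libraries were different ones: GCCAAAG in siRIPK2_1 (33.4% of its lower genes, 13.1% of all), TATTTTT in siRIPK2_2 (67.3% and 52.3%) and CTGGAAA in siRIPK2_3 (54.8% and 23.4%). In siNC it was AAATATT (59% and 36.9%) and in WT, with only 27 lower genes, CTTCCCC (59.3% and 22%). The excess of CTGGAAA in siRIPK2_3, 31.3 percentage points, was nearly the same as the 31.4 points of GATCACA in siRIPK2_4.

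Genes that were not in the lower group followed the same order. By the longest match in the 3' UTR, the median log2 difference of siRIPK2_4 to the median of the other 5 libraries was 0.05 for 7700 genes with no match, -0.05 for 1252 with the 6-base core only, -0.17 for 1277 with a 7-base word and -0.25 for 403 with the 8-base word. Below the range of the other 5 lay 11.9%, 20.9%, 31.6% and 35.5% of these classes. With the 282 lower genes left out the medians were 0.05, -0.04, -0.12 and -0.19. The classes also differed in length, with a median 3' UTR of 1039, 2768, 3163 and 3658 bases, and length was not held equal. By number of 6-base cores (0, 1, 2 and 3 or more) the medians over all genes were 0.05, -0.12, -0.10 and -0.19, which was not a steady fall. In the other 5 libraries, each compared in the same way, the medians of the 4 classes stayed between -0.04 and 0.07, and none fell from class to class as in siRIPK2_4. The lower genes of siRIPK2_4 had chosen the word, and the other libraries were not graded by their own first-ranked words. These medians are therefore a description and not a test.

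**Figure D4:**
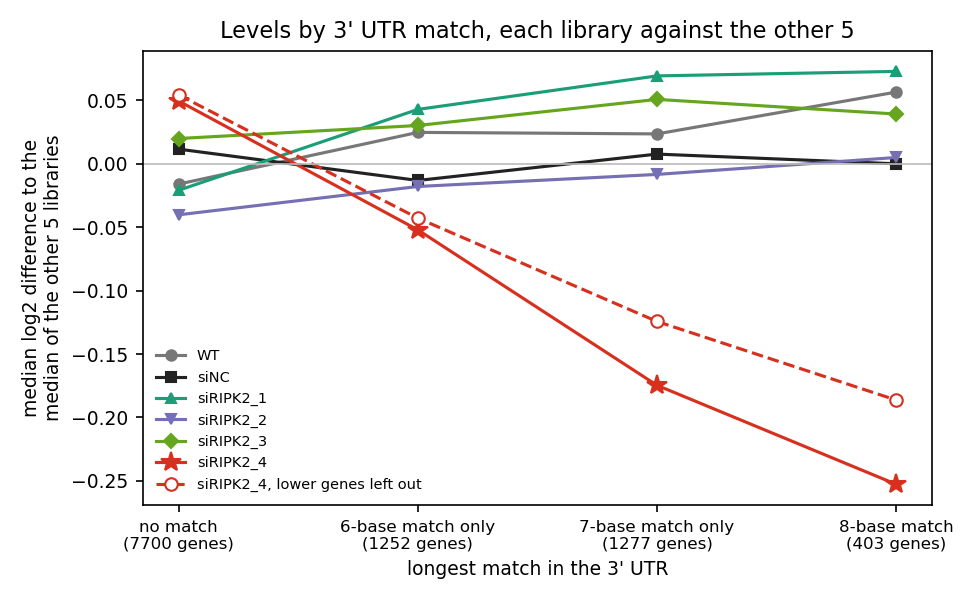
Median log2 difference of each library to the median of the other 5 (y axis) for genes grouped by the longest match to the 8-base word in their 3' UTR (x axis, with the number of genes). The red line of siRIPK2_4 runs from 0.05 to -0.25, the dashed line leaves out its 282 lower genes, and the other libraries stay between -0.04 and 0.07. Those lower genes chose the word, so the lines are a description and not a test.

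None of 2545 mature human miRNAs in the RefSeq table pairs the 6-base core with its bases 2 to 7. No siRNA sequence was at hand, so whether the word pairs the seed of the siRNA in siRIPK2_4 was not tested. RIPK2's own 3' UTR (647 bases) held 0 copies of the core. The rest of its transcript held 2 copies and 1 match of 7 bases. Part of the group lacked any match, since 96 of the 282 lower genes had no 6-base core in the 3' UTR. TPP1 was among them, as were PRKD2 and NOTCH3. TPP1 had 0 copies in its 3' UTR of 1783 bases. The rest of its transcript held 1 copy and 1 match of 7 bases. GCLM held 4 copies of the core. Of the 15 widest gaps below, 6 genes had the 7-base word (40%) and 8 the core (53.3%). Of the 100 widest, 48 had the word and 78 the core. Over all 282 lower genes the shares were 42.6% and 66%, so matches did not become steadily more common with wider gaps.

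The widest gaps above were led by single genes rather than by a family. SPECC1L-ADORA2A, a readthrough transcript that overlaps 2 listed genes, was at 66.4 CPM against 0.227 to 15.2 CPM and cannot be told apart from them. Its mean over the other 5 was 4.86 CPM, so it passed the filter only through siRIPK2_4. MSRB3, a methionine sulfoxide reductase, was at 8.32 CPM in WT, 7.72 in siNC, 11, 10.9 and 7.04 in siRIPK2_1 to siRIPK2_3 and 40.2 in siRIPK2_4 (38.2 to 42.4), a gap of 1.83. Controls and knockdowns were intermixed in the other 5 libraries, and siRIPK2_4 alone was high. FGF5, a secreted fibroblast growth factor (ENSG00000138675, chromosome 4, 80266599 to 80336680, plus strand), was at 55.7 CPM in WT, 32.1 in siNC, 19.1, 21 and 54.8 in siRIPK2_1 to siRIPK2_3 and 186 in siRIPK2_4 (182 to 191). It stood 3.35-fold above the highest of the others, which themselves spread between WT and siRIPK2_1.

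BIRC5, which encodes survivin, an inhibitor of apoptosis and member of the chromosomal passenger complex, was at 65.9 CPM in WT, 18.2 in siNC, 72.1, 40.9 and 46.6 in siRIPK2_1 to siRIPK2_3 and 177 in siRIPK2_4 (172 to 181). BIRC5 (ENSG00000089685, chromosome 17, 78214186 to 78225636, plus strand) thus stood 2.45-fold above the highest of the others, with siNC the lowest. GPC1, a heparan sulfate proteoglycan that binds fibroblast growth factors, was at 570.3 CPM in siRIPK2_4 against 128 to 286 CPM. The endothelial proteoglycan gene ESM1 was at 27.4 against 1.65 to 12.4 CPM and BMPER, a modulator of bone morphogenetic proteins, at 57.1 against 22.3 to 30.2 CPM. The protocadherin PCDHB2 (15.8 against 2.17 to 5.77 CPM), the chloride-proton exchanger CLCN5 (14.5 against 4.02 to 5.48 CPM) and FAM110A (52.2 against 3.86 to 25.9 CPM) were also in this group, of which PCDHB2 and CLCN5 passed the filter only through siRIPK2_4. RNF4 (96.9 against 22.2 to 39.2 CPM), a SUMO-targeted ubiquitin ligase, and ATRIP (30.6 against 5.89 to 15.6 CPM), the partner of the ATR kinase, overlap other listed genes.

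Genes of mitosis were high in siRIPK2_4 as a group. Of 46 measured members of a list of G2/M and mitosis genes, 29 lay above the other 5 libraries and 1 below (63% and 2.17%, against 16.6% and 16.2% of all genes), and 41 were higher than the median of the others. The median difference was 0.57 on the log2 scale, against 0.01 over all genes. Only BIRC5 and DLGAP5, a spindle assembly factor at 113 CPM against 44.6 to 74.3 CPM, passed the 1.5-fold gap. CCNB1, the mitotic cyclin B1, was at 171 CPM in WT, 209 in siNC, 166, 102 and 101 in siRIPK2_1 to siRIPK2_3 and 283 in siRIPK2_4. CDC20, an activator of the anaphase-promoting complex, was at 714 CPM against 218 to 527 CPM, TPX2, a spindle assembly factor, at 885 against 340 to 659 CPM, and HMMR, a spindle-binding hyaluronan receptor, at 46.5 against 16.3 to 31.5 CPM. The mitotic kinase gene PLK1 was at 257 CPM in siRIPK2_4, inside a range of 227 to 501 CPM.

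The same list also varied among the other libraries. Its median difference, each library against the other 5, was 0.05 in WT, -0.03 in siNC, 0.35 in siRIPK2_1, -0.75 in siRIPK2_2 and -0.18 in siRIPK2_3. So the knockdown libraries lay on both sides, with siRIPK2_4 the highest and siRIPK2_2 the lowest. DNA replication genes did not share the shift: 3 of 44 measured members lay above and 2 below, with a median of -0.08. These were 6.82% and 4.55%, against 16.6% and 16.2% of all genes. The 2 below were subunits of the GINS helicase complex, GINS1 (12.4 against 25.5 to 81.8 CPM) and GINS3 (15.8 against 32.9 to 42.4 CPM), both also past the 1.5-fold gap. GINS1 held 6 copies of the 6-base core in its 3' UTR and GINS3 none.

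The promoters of the mitotic list were examined for 2 motifs of cell cycle genes in RefSeq promoter windows of 250 bases before to 50 after the start. The cell cycle homology region TTTGAA was in 27 of 38 promoters of the list (71.1%) and in 9.59% of 8787 promoters of measured genes, counting both strands, and the CCAAT box in 76.3% and 37.3%. Among the 23 members above the range that had a promoter, 16 held TTTGAA, so the members above the range were no richer in it than the list. These motifs describe the list and not siRIPK2_4.

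Replication-dependent histone genes were likewise high. Only 5 of 15 listed were measured, since their messages mostly lack the poly(A) tail used to select RNA here, and 4 of the 5 lay above the other libraries, all by more than 1.5-fold. Over all genes 16.6% lay above the range and 0.525% lay above by at least 1.5-fold. H2AC6 was at 13.5 CPM in WT, 12.5 in siNC, 8.54, 7.01 and 5.38 in siRIPK2_1 to siRIPK2_3 and 40.9 in siRIPK2_4. H2BC12 was at 51 against 12.2 to 23.6 CPM, H2BC5 at 19.9 against 3.52 to 10.4 CPM and the linker histone H1-2 at 27.8 against 5.14 to 16.2 CPM. The median of the 5 was 1.59. A higher level of these genes and a larger polyadenylated share of their messages cannot be told apart here.

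Genes of the oxidative stress response split. NRF2, encoded by NFE2L2, is the transcription factor that switches on detoxification and glutathione genes when its repressor KEAP1 lets go of it. Of 39 measured NRF2 targets and glutathione genes, 18 lay above the other libraries and 4 below (46.2% and 10.3%, against 16.6% and 16.2% of all genes), with a median of 0.14. The median of siRIPK2_2 was nearly the same, at 0.12. HMOX1, the haem-degrading oxygenase, was at 1133 CPM in WT, 1230.1 in siNC, 1285, 1943 and 1115 in siRIPK2_1 to siRIPK2_3 and 3388 in siRIPK2_4, 1.74-fold above the highest. NQO1, a quinone reductase, was at 365 CPM against 125 to 258 CPM, TXNRD1, a thioredoxin reductase, at 439 against 216 to 353 CPM, and SRXN1, sulfiredoxin, at 482 against 282 to 374 CPM. NFE2L2 itself was at 73.8 CPM against 28.1 to 60.5 CPM and KEAP1 at 108.9 against 117 to 146 CPM.

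The 4 members below the range were GCLM, GSR, AKR1B10 and KEAP1. GSR, which regenerates reduced glutathione, was at 17.6 CPM in siRIPK2_4 against 50.4 to 77.1 CPM, a gap of 1.49. AKR1B10, an aldo-keto reductase, was at 6.05 against 12.5 to 45.6 CPM, and KEAP1 had a gap of only 0.11. The 4 members of the list whose 3' UTR held GATCACA had a median difference of -1.88, and 3 of them lay below the range, whereas the members without it had a median of 0.17. Those 3, GCLM, GSR and AKR1B10, are among the lower genes that had chosen the word, so this is a description and not a test. Over all genes the medians were -0.19 with the word and 0.03 without it. The antioxidant response element core TGACNNNGC was in 27.6% of the 29 promoters of the list and in 15.2% of all promoters. It was in 3 of the 13 promoters of members above the range, so those were no richer in it than the list.

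Proteasome genes lay slightly but widely higher. Of 30 subunit genes, 22 lay above the other 5 libraries and 1 below (73.3% and 3.33%, against 16.6% and 16.2% of all genes), none by 1.5-fold, with a median of 0.38. PSMA5, a subunit of the catalytic core, was at 111 CPM in WT, 113 in siNC, 112, 108 and 111 in siRIPK2_1 to siRIPK2_3 and 159 in siRIPK2_4, a gap of 0.49 above a tight range. PSMA4, another core subunit, was at 146 against 83.5 to 106 CPM and PSMC1, an ATPase of the regulatory particle, at 185 against 112 to 139 CPM. PSMD4, a ubiquitin receptor, was the 1 below, at 171 against 180 to 202 CPM. The list median in the other libraries lay between -0.11 and 0.13.

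Chaperone genes of the cytosol lay on both sides. Of 19 HSF1 chaperones 8 lay above and 4 below (42.1% and 21.1%, against 16.6% and 16.2% of all genes), with a median of 0.26. The constitutive chaperone HSPA8 was at 3410 against 2310 to 2946 CPM, while the small heat shock protein gene HSPB1 was at 283 against 382 to 569 CPM. Of 30 endoplasmic reticulum chaperones and unfolded protein response genes 9 lay above (30%) and 0 below, with a median of 0.09, which was under the 0.27 of WT and the 0.22 of siRIPK2_2. HYOU1 was at 1251 CPM against 424 to 926 CPM. HSPA5, the main chaperone of that compartment, was at 8509 against 2861 to 7745 CPM, with siRIPK2_3 the lowest.

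Hypoxia and glycolysis genes were low in siRIPK2_4. Of 37 measured, 21 lay below the other 5 libraries and 1 above (56.8% and 2.7%, against 16.2% and 16.6% of all genes). Of the same 37, 35 were lower than the median of the others, and the list median was -0.40. CA12, a membrane carbonic anhydrase, was at 514 CPM in WT, 397 in siNC, 562, 655 and 151 in siRIPK2_1 to siRIPK2_3 and 68.9 in siRIPK2_4, and CA9, its hypoxia-induced relative, at 46.4, 135, 91.4, 77.4, 25.1 and 15.3 CPM in the same order. In both, siRIPK2_3 came closest to siRIPK2_4. PDK1, a kinase that inhibits pyruvate dehydrogenase, was at 17.6 against 36.5 to 73.1 CPM, the enolase gene ENO2 at 51.6 against 97.7 to 223 CPM and VEGFA, the angiogenic growth factor, at 94.4 against 151 to 254 CPM. LDHA, lactate dehydrogenase A, was at 518 against 772 to 1540 CPM. SLC2A3, the neuronal glucose transporter, was the 1 above, at 191 against 39 to 122 CPM.

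The list's level also differed among the other libraries, from 0.59 in siNC and 0.11 in siRIPK2_2 to -0.24 in siRIPK2_3. The 6 members whose 3' UTR held GATCACA had a median of -0.87 and the remaining 31 a median of -0.33, so both lay below the all-gene median. Holders of the word such as CA12 and PDK1 are among the lower genes that had chosen it. Of the 21 below the range, 5 held the word, or 23.8%, close to the 22.9% found over all genes below the range.

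**Figure D5:**
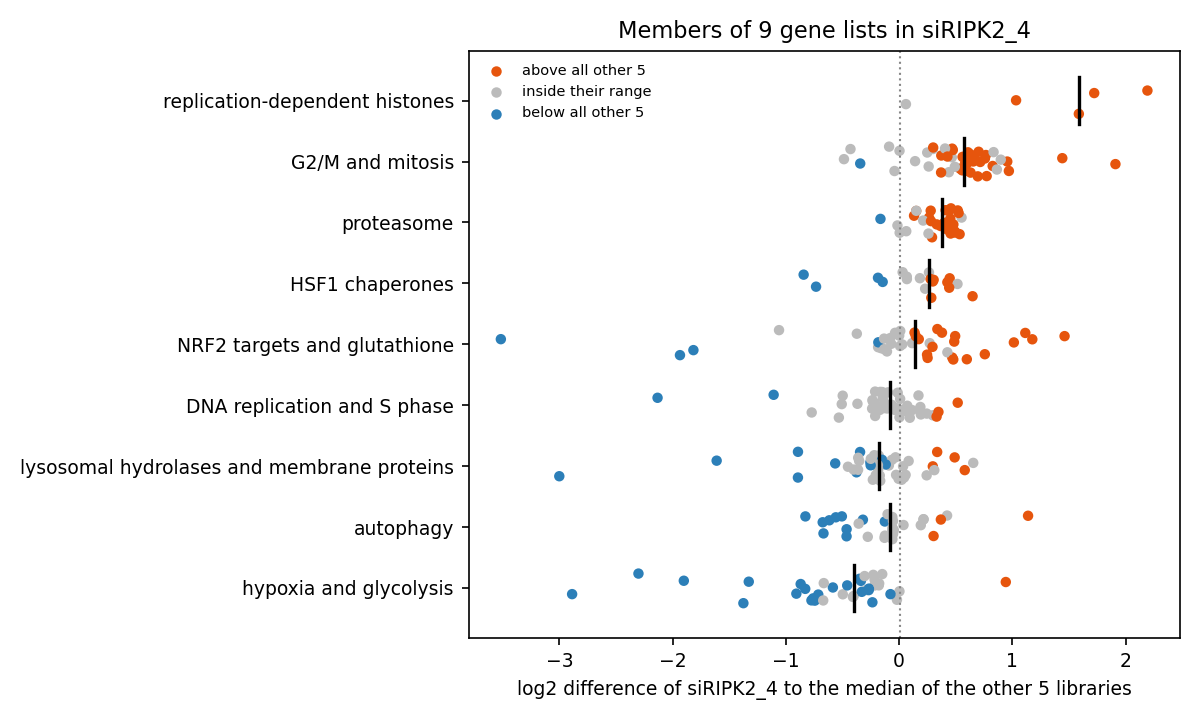
Log2 difference of siRIPK2_4 to the median of the other 5 libraries (x axis) for the measured members of 9 gene lists (1 point per gene, coloured by position against the other 5; vertical spread within a list has no meaning). Black bars are list medians, from 1.59 for histones to -0.40 for hypoxia and glycolysis, and the dotted line is the all-gene median of 0.01.

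Of 43 measured lysosomal hydrolases and membrane proteins 11 lay below and 4 above (25.6% and 9.3%, against 16.2% and 16.6% of all genes), with a median of -0.18. The same median was -0.14 in siRIPK2_1 and -0.12 in siRIPK2_3, so siRIPK2_4 did not stand far from those libraries. TPP1 and SCARB2, the receptor that carries glucocerebrosidase to lysosomes (59.9 against 104 to 116 CPM), passed the 1.5-fold gap. LIPA, the lysosomal acid lipase, was at 27.4 against 39.7 to 106 CPM and the protease gene CTSD at 663 against 895 to 1327 CPM. Vacuolar ATPase subunits, which acidify the lysosome, had 1 of 16 above and 1 below. Of 30 autophagy genes 10 lay below and 3 above (33.3% and 10%), none by 1.5-fold, with ATG16L1, which helps to attach LC3 to membranes, at 31 against 39.2 to 79.7 CPM. The CACGTG core of the lysosomal CLEAR element was in 31% of the 29 lysosomal promoters and in 10.5% of all promoters, and in 0 of the 3 promoters of members above the range.

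Most components of the pathway that RIPK2 serves lay inside the range of the other 5 libraries. Of 21 measured NOD and RIPK2 signalling genes 4 lay above and 3 below (19% and 14.3%, against 16.6% and 16.2% of all genes), with a median of 0.08. NFKB1, the precursor of the NF-kB subunit p50, was at 40.6 CPM in WT, 47.2 in siNC, 41.7, 41.3 and 38.5 in siRIPK2_1 to siRIPK2_3 and 12.1 in siRIPK2_4 (11 to 13.3), a gap of 1.63. The controls and the other 3 knockdown libraries were intermixed, and siRIPK2_4 alone was low. RELA, the partner subunit, was at 109 CPM against 98.7 to 113 CPM, inside the range. The sensor NOD1 was at 8.99 against 16.4 to 19.4 CPM and the kinase IKBKB at 29.6 against 39.3 to 46.9 CPM. BIRC2, a ubiquitin ligase of this route, was highest in siRIPK2_4, at 117 against 33.6 to 97 CPM. Of 23 NF-kB targets 2 lay above and 4 below (8.7% and 17.4%), with a median of -0.07. TNFAIP2 was at 17.5 against 26.3 to 59.8 CPM.

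Growth factors and their receptors lay on both sides of the other libraries. Of 16 ligand genes 6 lay above and 2 below (37.5% and 12.5%), led by FGF5 above and VEGFA below. Of 22 receptors 9 lay above and 3 below (40.9% and 13.6%), against 16.6% and 16.2% of all genes. PDGFRA was at 283 CPM in WT, 194 in siNC, 138, 169 and 254 in siRIPK2_1 to siRIPK2_3 and 428 in siRIPK2_4, whereas its sister receptor PDGFRB was at 159, 173, 60.8, 200.1, 138 and 39.1 CPM. The cytokine receptor LIFR was at 46.7 against 11.2 to 28.6 CPM. The HGF receptor MET was at 134 against 199 to 265 CPM and its ligand HGF at 13.5 against 2.99 to 8.86 CPM. The insulin receptor INSR was at 4.9 against 6.91 to 14.5 CPM. All 3 receptors below the range, PDGFRB, MET and INSR, had GATCACA in the 3' UTR, as had 3 of the receptors that were not below it. Over all genes below the range 22.9% held the word, which the lower genes themselves had chosen.

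Single members of other lists also lay outside the range. The list medians of integrins (-0.25), immediate early and AP-1 genes (-0.24) and HLA class I genes (-0.21) lay under the all-gene 0.01. MDM2, the ubiquitin ligase of p53, was at 65.3 CPM in siRIPK2_4 and 42.5 in siRIPK2_3 but only 14 to 15.6 CPM in the other 4, while the p53 target ZMAT3 was at 39.5 against 85.5 to 116 CPM. ACO1, the iron sensor, was at 109.2 against 226 to 332 CPM and TGFBI, a matrix protein induced by TGF-beta, at 29.6 against 57.5 to 187 CPM. Integrin beta-5 (ITGB5) was at 170.3 against 328 to 421 CPM, the coat protein gene SEC23B at 90.2 against 196 to 269 CPM, and TEAD2, a transcription factor of the YAP pathway, at 6.02 against 16 to 28.4 CPM. MAFF, a small Maf protein, was at 5.91 against 14.7 to 37.5 CPM, NID2, a basement membrane protein, at 52.3 against 102 to 157 CPM, and TWIST1, a mesenchymal transcription factor, above the range at 80.9 against 25.6 to 51.1 CPM. Smaller gaps below were seen in AJUBA (28.7 against 45.3 to 78.9 CPM), NLRC5 (23.1 against 36.5 to 53.6 CPM), NDUFA8 (18.5 against 28.5 to 42.2 CPM) and S100A2 (8.69 against 14.9 to 34 CPM). Of these lower genes ZMAT3, ACO1, ITGB5, TEAD2 and NDUFA8 had GATCACA in the 3' UTR, and TGFBI, SEC23B, MAFF, NID2, AJUBA, NLRC5 and S100A2 did not. Of the genes above the range here, MDM2 also had it and TWIST1 did not.

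Cytosolic ribosomal protein genes had a median of 0.27, with 49 of 50 above the median of the others but only 1 above and 1 below the range, since siRIPK2_3 was higher still at 0.57. Nuclear-encoded respiratory chain genes (median 0.03) and mitochondrially encoded genes (median -0.09) lay close to the all-gene value. Interferon-stimulated genes had 0 of 31 above and 4 below (12.9%), and amino acid transporters 0 of 19 above and 4 below (21.1%), against 16.2% of all genes below, with medians of -0.15 and -0.26.

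Markers of other cell types were scarce in siRIPK2_4, as in the rest. Of 20 astrocyte and proneural markers 7 were measured, of 20 neuron and oligodendrocyte markers 5, of 15 macrophage and microglia markers 1, of 10 endothelial markers 1, and of 17 epithelial markers 2. At most 3 counts in every library were found for 5, 8, 6, 1 and 1 members of these lists. Summed over the whole list, siRIPK2_4 was inside the range of the other 5 for the first 3 of them, at 8013 CPM (4454 to 8100.2), 252 CPM (229.8 to 276) and 151 CPM (99.6 to 169). The first of these sums was mostly VIM, at 7191 CPM in siRIPK2_4 and 3803 to 7568 CPM elsewhere, and says little about its other members. Of the 7 measured there, 1, PDGFRA, lay above the range and 0 below. Summed epithelial markers were at 21 CPM in siRIPK2_4 and between 34.3 and 94.7 CPM in the other 5, and endothelial markers at 12.9 against 18.7 to 25.5 CPM. KRT7, an epithelial keratin, was at 2.48 against 5.55 to 13.2 CPM. The leucocyte gene PTPRC stayed at or below 0.11 CPM and EPCAM at or below 0.17 CPM in all libraries. In bulk RNA, fewer cells of a kind and less RNA per cell cannot be told apart, and the part of these markers in the results above was not tested.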

How the data were processed

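Poly(A)-selected RNA of 6 U118 libraries was sequenced (1 WT, 1 siNC, 4 siRIPK2). The deposited file holds unnormalised read counts by Ensembl gene, which the authors made with FastQC, Trimmomatic, HISAT2 and bedtools on GRCh38, per the submitters' processing notes. Versions, annotation and strand setting were not stated there, so reads of overlapping or antisense genes cannot be told apart, which touches 5320 of the 20263 IDs. Symbols were found for 19837 IDs, and 20224 were in GENCODE release 29.

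Counts were scaled to CPM with TMM factors (edgeR 4.0.16, R 4.3.3), and genes with a mean of at least 5 CPM were kept. The gap is log2(CPM + 0.5) of siRIPK2_4 minus the highest, or the lowest minus it, of the other 5 libraries, and 1.5-fold is the threshold. Fold changes given as such are ratios of CPM. No test of a difference was run, because siRIPK2_4 is 1 library. Poisson intervals are exact (95%, scipy 1.17.1) and cover counting error only, as does the detection floor of 3 counts.

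Named genes were RIPK2, GCLM, TPP1, BIRC5 and FGF5, the 15 widest gaps in each direction, and up to 3 members per direction of each of 49 gene lists with a gap of at least 1.5-fold. Other genes illustrate their list or were named after their values were seen. The genes, lists and rules were chosen with earlier results of these data known. The search for 3' UTR words was added after the values were seen. It used the longest 3' UTR per gene, and promoters came from RefSeq. Alternatives were DESeq2 1.42.0 size factors, plain CPM, other filters, pseudocounts and gaps, counting error, leaving out each other library or overlapping genes, and a length and GC correction. One gene of the 15 widest gaps above and 1 sequence stretch are not reported here.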

Additional observations from a re-analysis of the deposited data

Results flagged for a closer look

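Among the 4 siRIPK2 libraries, 64 named genes and 46 lists were examined for 1 library that lay far from the rest (a gap to the nearest that takes up more of the whole range than Dixon's 95% critical value for 4 values). Chance flags about 1 in 20 groups. That rate holds for groups not picked by their values and does not apply to these genes, most of which were picked for gaps of siRIPK2_4, so what follows is a description. Of the genes 9 met it, 8 of them with siRIPK2_4 apart.

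Low in siRIPK2_4 were GCLM (6.05 CPM, the rest 64.8 to 76.4), MGLL (62.5 CPM, the rest 371 to 414), SHMT2 (104.5 CPM, the rest 407 to 421) and NFKB1 (12.1 CPM, the rest 38.5 to 41.7). High in siRIPK2_4 were SPECC1L-ADORA2A (66.4 CPM, the rest 0.227 to 4.8), MSRB3 (40.2 CPM, the rest 7.04 to 11), H2AC6 (40.9 CPM, the rest 5.38 to 8.54) and CLCN5 (14.5 CPM, the rest 4.02 to 5.47). SPECC1L-ADORA2A and CLCN5 passed the filter of 5 CPM only through siRIPK2_4. ENSG00000267303, which overlaps other listed genes, was high in siRIPK2_3 (35.1 CPM, the rest 0 to 1.87). Of the lists 3 met the criterion, none through siRIPK2_4. Interferon-stimulated genes summed to 1023 CPM in siRIPK2_2 (the rest 889 to 895), annexin and S100 genes to 4650.1 CPM in siRIPK2_1 (the rest 9975 to 10235) and nuclear pore and transport genes to 3311 CPM in siRIPK2_2 (the rest 4281 to 4472).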

How the results depend on the processing

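The 338 genes rest on 1 library, so the alternatives show how the counts move with the processing, not whether another knockdown would repeat them. Among 858 recomputed gaps of 63 named genes under 14 settings, 0 changed sign. Most of these settings could not change one. Filters and leaving out overlapping genes keep a gap as it is, pseudocounts keep the order, and leaving out a library can only widen a gap. Only the DESeq2 size factors, plain CPM and the length and GC correction could have turned a sign. The counts of 56 genes above and 282 below by 1.5-fold became 254 and 610 at the smaller gap tried, and 11 and 106 at 2-fold. Without a filter on low counts 93 lay above by 1.5-fold, and 2760 above the range at all. Requiring counting intervals to lie apart left 900 above and 945 below the range, so 1776 and 1725 hold many gaps within counting error. Without genes that overlap another, 187 lay below by 1.5-fold and 1169 above the range. Leaving out each of the other libraries in turn gave 72 to 93 (without siRIPK2_1) above and 323 to 379 below by 1.5-fold, and 1971 to 2396 above and 1899 to 2245 below the range. Fewer libraries make a narrower range by construction. The share of lower genes with GATCACA, 42.6%, was 33.9% at that smaller gap and 24.8% with the shortest 3' UTR, and 38.7% to 40.5% without each other library. In the same runs the members outside the range were 29 to 38 for mitosis (38 without siRIPK2_1), 18 to 20 for NRF2, 22 to 24 for the proteasome and 22 to 26 for hypoxia. Plain CPM moved the all-gene median from 0.01 to -0.03 on the log2 scale and turned the direction of none of the lists described in the text with a median beyond 0.1. No other alternative moved a count past 1.5 times. Genes near 5 CPM have the least precise levels. No paired analysis was possible because WT and siNC are single libraries and siRIPK2_4 is compared alone.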

Other observations

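Some further genes above the other 5 libraries by at least 1.5-fold were picked here after their values were seen. IGFBP1, a binding protein of insulin-like growth factors, was at 41.3 CPM in siRIPK2_4 against 15 to 23.1 CPM. PPARA, a nuclear receptor that drives fatty acid oxidation, was at 17.1 against 6.84 to 9.46 CPM. MEOX2, a homeobox transcription factor, was at 73.1 against 25.6 to 40.8 CPM, and EPHB3, an ephrin receptor, at 10.5 against 1.04 to 5.97 CPM, passing the filter only through siRIPK2_4. Among the lower genes, TERF1, a telomere-binding protein, was at 6.68 against 17.5 to 28.9 CPM, HTRA2, a mitochondrial protease that overlaps other listed genes, at 15.4 against 44.2 to 60.4 CPM, and PSME2, a subunit of the proteasome activator, at 25.3 against 59.4 to 93.5 CPM.

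The 54 higher genes with a 3' UTR had no 7-base word as frequent over the background as the lower genes had. Their first-ranked word, CCTTCCT, was in 50% of them and 26.2% of all genes, a difference of 23.8 percentage points, against 31.4 points for GATCACA in the lower genes. With 54 genes and 16384 words, the first rank alone says little.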
